A study of Mus musculus with 18 samples.

Results

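Photoreceptor transcription factors were measured in Plk3-KO and wild-type (WT) mouse retinas at postnatal day 0 (P0), at P7 and in the adult. The list held 10 genes chosen by name for their known roles in making or running photoreceptors, namely Crx, Otx2, Nrl, Nr2e3, Rorb, Prdm1, Casz1, Mef2c, Thrb and Esrrb. Of these, 9 had at least 1 probe set on the array whose annotation gives that gene symbol alone, out of 18193 genes so represented. The 9 genes had 21 probe sets, a probe set being a group of short oligonucleotides that together read 1 stretch of an mRNA. For each gene the probe set with the highest mean over the 18 arrays leads the description, which leaves 12 further probe sets. Nr2e3 was not analysed here, because no probe set carries its symbol alone in the annotation used.

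The retinas came from 6 groups of 3 arrays each. They were Plk3-KO at P0, Plk3-KO at P7 and adult Plk3-KO, and their WT littermates at the same ages. The strain given for all of them is C57Bl/6, to which the Plk3-KO mice had been crossed, and the labels give no age in days for the adult arrays. The knockout is constitutive and takes away the first exons of Plk3, which encodes a polo-like kinase. The sources do not say how many animals went into an array, so the p-values below measure the spread between arrays, part of which may be technical. In limma that spread was shared over all 6 groups, not taken from the compared groups alone. Values are log2 signals from the MAS5 algorithm, on which a difference of 1 is a doubling, and a probe set was tested where the mean of at least 1 of the compared groups lay above 7. A gene is said to rise, fall or be called on an adjusted p under 0.05 from limma with Benjamini-Hochberg adjustment over all probe sets tested.

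Photoreceptors are made from dividing progenitors that first turn on Otx2, whose product is needed for the photoreceptor fate and activates Crx. Crx, a related homeodomain protein, then drives the genes of both rods and cones, Nrl commits a precursor to the rod fate, and Nr2e3 acts with it to keep cone genes silent in rods. Rorb acts upstream of Nrl, Prdm1 keeps young photoreceptor precursors from becoming bipolar cells, and Thrb is needed for the cones that make M-opsin. In the mouse, rods make up most of the cells of the retina, and many are still being born at P0.

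All 9 genes were read in whole retina, where fewer cells of a type and less RNA per cell cannot be told apart. Array medians lay between 6.3 and 7.2. Of the 18 arrays, 4 stood apart from the others of their age. In the adult they were array 3 of Plk3-KO, which correlated at only 0.802 to 0.849 with the rest of that age and had a median of 7.2, and array 3 of WT, with a median of 7.0, where the remaining adult medians lay at 6.3 to 6.5. At P7 they were array 2 of Plk3-KO and array 3 of WT, each with a median of 6.4 where the remaining P7 medians lay at 6.8 to 6.9, and their deviations from their group means correlated at 0.60. The difference between the 3' and 5' beta-actin control signals, a sign of shortened RNA, was 2.7 on that adult Plk3-KO array, against 1.6 to 1.8 on the other adult arrays, and 1.6 on these P7 arrays, against 0.8 to 1.1 on the other P7 arrays. Adult WT array 3 did not stand apart by actin, at 1.6, or by correlation, at 0.849 to 0.921 with the other adult arrays. Calls of the leading probe sets that change without the 4 arrays that stood apart are given both ways. The single probe set of Plk3, 1434496_at, averaged 7.90 ± 0.36 in Plk3-KO and 6.87 ± 0.45 in WT at P0 (SD, n = 3 each), and it lies at the 3' end, outside the deleted exons, so it does not check the knockout. Rod genes, which mark the tissue as retina, had adult list means of 13.43 to 13.70 in Plk3-KO and 13.02 to 13.57 in WT. Lens genes had list means of 5.88 to 9.60 on the adult Plk3-KO arrays and 8.56 to 11.24 on the adult WT arrays. At P0 their list means varied more, from 6.26 to 11.53 in Plk3-KO and from 3.80 to 13.39 in WT. At P7 they were 4.70 to 5.17 in Plk3-KO and 3.84 to 5.26 in WT. The part of lens tissue in the values of the 9 genes was not tested.

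**Figure D1:**
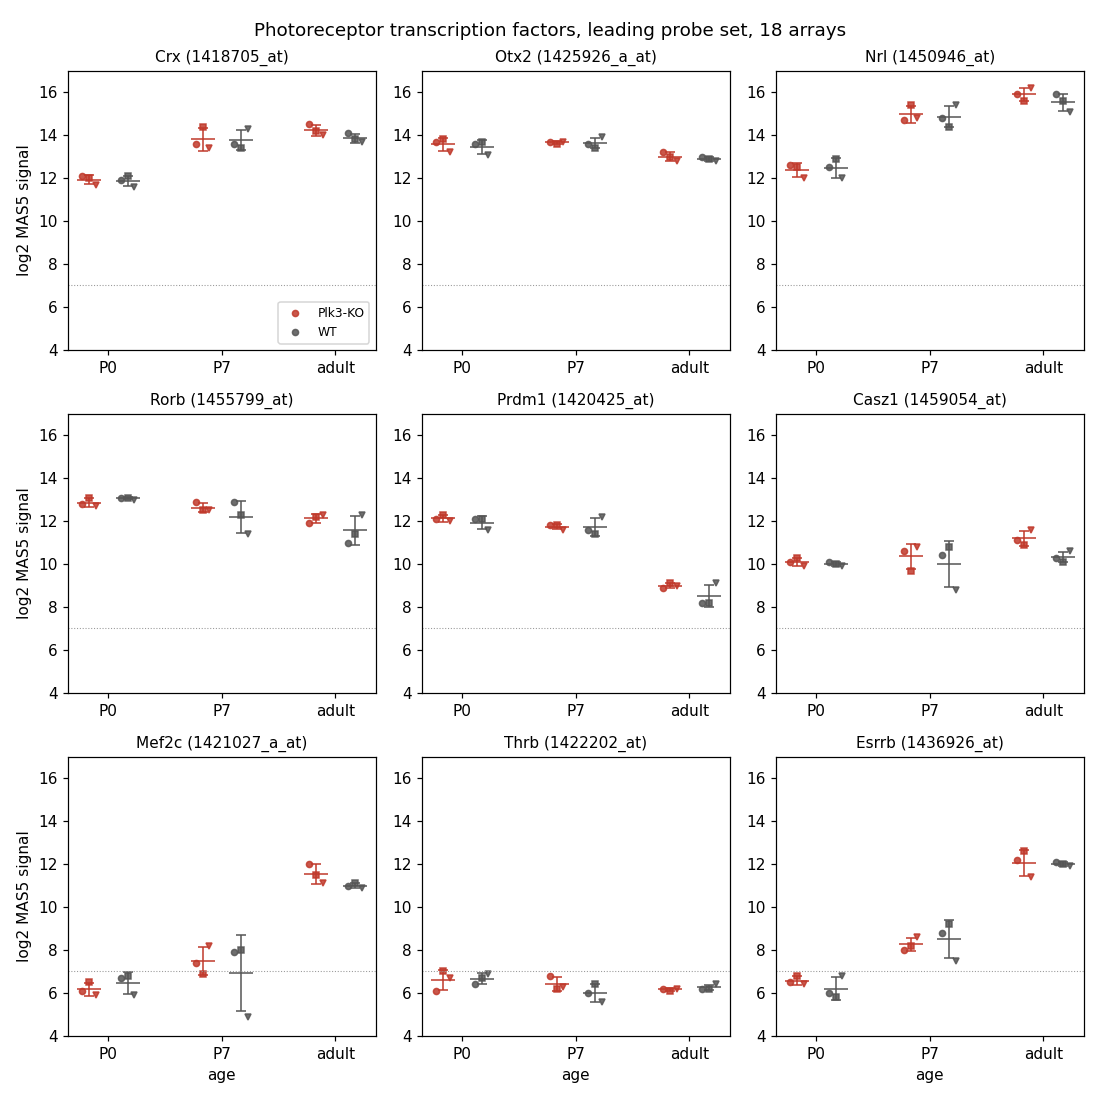
Log2 MAS5 signal of the leading probe set of each of the 9 genes on each of the 18 arrays, by age, with Plk3-KO in red to the left of WT in grey (circles array 1, squares array 2, triangles array 3; bars are mean and SD of 3 arrays; the dotted line is the minimum of 7). Crx and Nrl stand higher at P7 than at P0 in both genotypes, Esrrb and Mef2c stand far higher in the adult, adult Prdm1 averages 9.00 in Plk3-KO and 8.50 in WT, and the group means of Thrb lie under the line.

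Crx and Nrl, the genes that drive the photoreceptor and rod programmes, were both already high at P0 and rose in the first week. Nrl read 12.6, 12.5 and 12 on the P0 Plk3-KO arrays, against 12.5, 12.9 and 12 on the P0 WT arrays. At P7 it read 14.7, 15.4 and 14.8 in Plk3-KO, against 14.8, 14.4 and 15.4 in WT. In the adult it read 15.9, 15.6 and 16.2 in Plk3-KO, against 15.9, 15.6 and 15.1 in WT. No P7 array overlapped any P0 array, while the P7 and adult arrays of WT overlapped and those of Plk3-KO did not. At P7 Nrl was 6.06-fold higher than at P0 in Plk3-KO (difference 2.60, standard error 0.321, limma, adjusted p = 2.38e-05) and 5.28-fold higher in WT (2.40, standard error 0.321, adjusted p = 5.95e-05). Among all probe sets tested, 21.2% were called between P7 and P0 in Plk3-KO and 20.4% in WT.

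The later step of Nrl did not pass on all arrays. Between the adult and P7 it differed by 0.93 in Plk3-KO (standard error 0.321, limma, adjusted p = 0.0517) and by 0.67 in WT (adjusted p = 0.152). After quantile normalization these became -0.09 and -0.08, so neither the direction nor the size of the later step is settled. Without the 4 arrays that stood apart it passed in both genotypes, at 1.00 in Plk3-KO (adjusted p = 0.0107) and 1.15 in WT (adjusted p = 0.00378). The Plk3-KO step also passed on leaving out P7 Plk3-KO array 2 alone (1.15, adjusted p = 0.0361), or any of P0 WT array 3, P7 WT array 2, P7 WT array 3 and adult WT array 3, which enter it only through the shared spread (0.93, adjusted p = 0.0318 to 0.0498).

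Crx, the homeobox gene whose loss leaves photoreceptors without outer segments, read 12.1, 12 and 11.7 in Plk3-KO at P0, against 11.9, 12.1 and 11.6 in WT. At P7 it read 13.6, 14.4 and 13.4 in Plk3-KO, against 13.6, 13.4 and 14.3 in WT, and in the adult 14.5, 14.2 and 14.0 in Plk3-KO, against 14.1, 13.8 and 13.7 in WT. The P0 arrays lay below all others, and the P7 and adult arrays overlapped in each genotype. Crx was 3.65-fold higher at P7 than at P0 in Plk3-KO (1.87, standard error 0.276, limma, adjusted p = 0.000141) and 3.73-fold higher in WT (1.90, standard error 0.276, adjusted p = 0.000128). It then differed by 0.43 in Plk3-KO (adjusted p = 0.293) and 0.10 in WT (adjusted p = 0.827) between the adult and P7. The highest P7 readings of both Crx and Nrl came from Plk3-KO array 2 and WT array 3, the P7 arrays that stood apart. Without the 4 such arrays Crx was higher in the adult than at P7 by 0.85 in Plk3-KO (adjusted p = 0.0046) and by 0.45 in WT (adjusted p = 0.0776), and its P7 minus P0 difference was 1.57 in Plk3-KO and 1.63 in WT, still called in both.

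Crx and Nrl correlated at 0.98 over the 18 arrays, which differ in age, genotype and RNA quality together. The genes closest in pattern to Nrl, among 12109 genes above the minimum, were Pde6g (Pearson's r = 0.994), the inhibitory subunit of the rod phosphodiesterase, and Prom1 (0.993), a protein of outer segment discs. Those closest to Crx were Lgalsl (0.987) and Tlcd3b (0.986). Because Crx and Nrl moved together, the 250 bases before their start sites are shown (RefSeq, GRCm38.p6, read 5′ to 3′ along each gene), with capitals for TAATCC on either strand (GGATTA on the other), the letters that Crx and Otx2 bind.
Crx, chr7:15879956-15880205, minus strand: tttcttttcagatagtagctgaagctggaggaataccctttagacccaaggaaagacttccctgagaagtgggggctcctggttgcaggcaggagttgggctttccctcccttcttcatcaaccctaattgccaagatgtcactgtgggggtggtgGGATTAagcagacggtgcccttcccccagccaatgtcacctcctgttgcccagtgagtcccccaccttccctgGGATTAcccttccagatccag
Nrl, chr14:55524253-55524502, minus strand: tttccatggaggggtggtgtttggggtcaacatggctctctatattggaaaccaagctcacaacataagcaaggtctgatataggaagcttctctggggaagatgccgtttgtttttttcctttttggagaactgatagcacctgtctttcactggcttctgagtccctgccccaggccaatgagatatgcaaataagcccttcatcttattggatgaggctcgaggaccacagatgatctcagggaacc
The window of Crx held the motif at 2 places, with bases -94 to -89 and -21 to -16 from the start site, and that of Nrl at none. Of all 32851 such windows, 6.25% held it, and among the 19 windows of the 10 listed genes 4 did, those of Crx, Otx2, Casz1 and Thrb. On either strand, TGCTGA, the core of the element that Nrl binds, stood in 3 of the 19 windows (16.1% of all) and AGGTCA, the core of the element of nuclear receptors such as Rorb, Esrrb and Thrb, in 4 (14% of all). A match is only a string of letters and says nothing of binding in these retinas.

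Otx2 and Prdm1, which act early in the same precursors, were not called between P7 and P0 and were lower in the adult, Prdm1 by 6.65-fold in Plk3-KO and 9.40-fold in WT. Prdm1, the zinc finger repressor also called Blimp1, read 12.1, 12.3 and 12 in Plk3-KO at P0, against 12.1, 12.1 and 11.6 in WT. At P7 it read 11.8, 11.8 and 11.6 in Plk3-KO, against 11.6, 11.4 and 12.2 in WT. In the adult it read 8.9, 9.1 and 9.0 in Plk3-KO, against 8.2, 8.2 and 9.1 in WT. Every adult array lay more than 2 log2 units below every P7 array of either genotype. The difference from P7 was -2.73 in adult Plk3-KO (standard error 0.244, limma, adjusted p = 2.7e-06) and -3.23 in adult WT (adjusted p = 5.49e-07). Between P7 and P0 it differed by -0.40 in Plk3-KO (adjusted p = 0.281) and -0.20 in WT (adjusted p = 0.605). With each array weighted by its spread it differed by -0.40 in both and was called (limma, adjusted p = 0.031 in Plk3-KO and 0.0259 in WT). That setting called 41.6% of all probe sets in Plk3-KO and 10388 of 23411 in WT, and the estimate of its weights did not converge. Between the adult and P7, 19.2% of all probe sets tested were called in Plk3-KO and 19.7% in WT. The genes closest to Prdm1 in pattern were Zfp711 (r = 0.981) and Fabp7 (0.977), a fatty acid binding protein of immature glia and progenitors.

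Otx2 read 13.7, 13.8 and 13.2 in Plk3-KO at P0, against 13.6, 13.7 and 13.1 in WT, and 13.7, 13.6 and 13.7 in Plk3-KO at P7, against 13.6, 13.4 and 13.9 in WT. In the adult it read 13.2, 13.0 and 12.8 in Plk3-KO, against 13.0, 12.9 and 12.8 in WT, so that adult and P7 arrays did not overlap in either genotype. It was 1.59-fold lower in the adult than at P7 in Plk3-KO (-0.67, standard error 0.210, limma, adjusted p = 0.0354) and 1.66-fold lower in WT (-0.73, adjusted p = 0.0226). These calls depended on the scaling and on single arrays. With every array centred on its median, they were lost (-0.63, adjusted p = 0.322 in Plk3-KO and -0.60, adjusted p = 0.33 in WT), and adult minus P0, called at -0.57 in both genotypes, became -0.30 in Plk3-KO and -0.20 in WT. Without the 4 arrays that stood apart the adult minus P7 difference of Otx2 was -0.60 in Plk3-KO (adjusted p = 0.0435) and -0.55 in WT (adjusted p = 0.0538), and the adult minus P0 difference in Plk3-KO was -0.47 (adjusted p = 0.0539). With 1 array left out, the adult minus P7 call was lost in Plk3-KO without any of the 3 P7 arrays, adult array 2 or adult array 3 (adjusted p = 0.0612 to 0.0943) and in WT without P7 array 1, P7 array 3 or adult array 2 (0.0526 to 0.0762). The adult minus P0 call was lost in Plk3-KO without P0 array 1, P0 array 2, adult array 2 or adult array 3 (0.0751 to 0.146) and in WT without P0 array 1, P0 array 2 or any adult array (0.0573 to 0.137). Centring moves the median of all tested probe sets between the adult and P0 by 0.27 in Plk3-KO and 0.37 in WT. Otx2 is also made by bipolar cells and pigment epithelium. Between the adult and P7, 4 of 9 tested bipolar markers were higher and 1 lower in Plk3-KO, and 5 of 9 were higher and 0 lower in WT. Of 9 pigment epithelium markers, 4 were higher and 0 lower in each genotype. In each genotype 8 of the 9 had a mean above 7 at P7, against 9 in the adult. Of all probe sets, 9.16% were higher and 10% lower in Plk3-KO, and 9.95% and 9.75% in WT. The part of these cells in the Otx2 values was not tested. Otx2 followed Thoc6 (r = 0.922) and Col9a3 (0.912) most closely.

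Rorb, an orphan nuclear receptor that works upstream of Nrl, had its highest mean at birth. Its leading probe set read 12.8, 13.1 and 12.7 in Plk3-KO at P0, against 13.1, 13.1 and 13.0 in WT, and 12.9, 12.5 and 12.5 in Plk3-KO at P7, against 12.9, 12.3 and 11.4 in WT. In the adult it read 11.9, 12.2 and 12.3 in Plk3-KO, against 11.0, 11.4 and 12.3 in WT. The adult arrays lay below the P0 arrays of their genotype, and the P7 arrays of WT spread over more than 1 log2 unit. In WT the adult was 2.83-fold lower than P0 (-1.50, standard error 0.331, limma, adjusted p = 0.00168, and 0.0513 with the methods' t-test), and in Plk3-KO 1.66-fold lower without passing (-0.73, adjusted p = 0.0817). Without the 4 arrays that stood apart it passed in Plk3-KO too (-0.82, adjusted p = 0.00325), and so did the adult minus P7 difference in Plk3-KO (-0.65, adjusted p = 0.0337) and in WT (-1.40, adjusted p = 0.000272). Leaving out P7 WT array 3 or adult WT array 3 alone was enough for the adult minus P0 call in Plk3-KO (-0.73 each time, limma, adjusted p = 0.0345 and 0.0427). These arrays enter that difference only through the shared spread. Either omission was also enough for the adult minus P7 call in WT (-1.03 and -1.0, adjusted p = 0.0328 and 0.028). The P7 minus P0 difference in WT, -0.87 on all arrays (adjusted p = 0.0767), passed without P7 WT array 1 (-1.22, adjusted p = 0.0194). It also passed without adult WT array 3, which enters it only through the shared spread (-0.87, adjusted p = 0.0383). Of all probe sets tested, 45.3% were called between the adult and P0 in Plk3-KO and 48.1% in WT. Both further probe sets of Rorb were called lower in the adult than at P0 in each genotype, 1439862_at by -1.83 in Plk3-KO and -1.63 in WT, and 1425162_at by -0.87 in Plk3-KO and -0.73 in WT. Dividing progenitors, which also make Rorb, also had less signal over the same span. All 10 of their measured markers were called lower in the adult than at P0 in each genotype. Only 5 of the 10 had a mean above 7 in the adult, so the others passed the minimum only through P0, their higher age. Of all probe sets, 25.2% were lower in Plk3-KO and 26.9% in WT. The part of progenitors in the Rorb values was not tested. Prrc2c (r = 0.950) and Zfp280d (0.935) followed Rorb most closely.

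Mef2c and Esrrb were below the minimum at birth and were far higher in the adult. Esrrb, an orphan nuclear receptor that in rods governs genes of energy supply, read 6.5, 6.8 and 6.4 in Plk3-KO at P0, against 6.0, 5.8 and 6.8 in WT. At P7 it read 8.0, 8.2 and 8.6 in Plk3-KO, against 8.8, 9.2 and 7.5 in WT, and in the adult 12.2, 12.6 and 11.4 in Plk3-KO, against 12.1, 12 and 11.9 in WT. The 3 ages did not overlap in either genotype. P7 was above P0 by 1.70 in Plk3-KO (standard error 0.389, limma, adjusted p = 0.00482) and by 2.30 in WT (adjusted p = 0.000511). The methods' t-test gave 0.0892 for WT under the same Benjamini-Hochberg adjustment, which the paper's methods do not name. The adult was above P7 by 3.80 in Plk3-KO (limma, adjusted p = 9.59e-06) and by 3.50 in WT (adjusted p = 2.08e-05). The adult signal was 45.25 times that of P0 in Plk3-KO and 55.72 times in WT, sizes that rest on P0 means under 7. Esrrb followed Fam169a (r = 0.993) and Cds1 (0.991), an enzyme of phospholipid synthesis.

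Mef2c, a MADS-box factor of neurons and muscle, read 6.1, 6.5 and 5.9 in Plk3-KO at P0, against 6.7, 6.8 and 5.9 in WT. At P7 it read 7.4, 6.9 and 8.2 in Plk3-KO, against 7.9, 8.0 and 4.9 in WT, and in the adult 12, 11.5 and 11.1 in Plk3-KO, against 11.0, 11.1 and 10.9 in WT. All adult arrays lay far above all younger ones, and the P7 WT group was split by array 3. Between the adult and P7 it was 16.37-fold higher in Plk3-KO (4.03, standard error 0.605, limma, adjusted p = 0.000294) and 16.76-fold higher in WT (4.07, adjusted p = 0.000281). Between P7 and P0 it differed by 1.33 in Plk3-KO (adjusted p = 0.136), and in WT, where both means lay under 7, by an untested 0.47. Without P7 WT array 3 the WT difference was 1.48 (adjusted p = 0.0111). Mef2c was then also called in Plk3-KO, where that array enters only through the shared spread (1.33, adjusted p = 0.00883). Without all 4 arrays that stood apart it was called in both genotypes (1.63, adjusted p = 0.00158 in Plk3-KO and 1.48, adjusted p = 0.00304 in WT). Without the same P7 WT array the adult minus P7 difference in WT was 3.05 (adjusted p = 0.000118), so its 16.76-fold rests in part on that array. Microglia also make Mef2c, and between the adult and P7 5 of their markers were lower and 0 higher in each genotype, of 7 tested in Plk3-KO and 8 in WT. Of all probe sets, 10% were lower and 9.16% higher in Plk3-KO, and 9.75% and 9.95% in WT. The mean of the 9 microglia markers ran over 7.0 to 7.92 in adult Plk3-KO and 7.34 to 8.06 in adult WT, against 8.53 to 9.00 in P7 Plk3-KO and 8.68 to 9.01 in P7 WT. Of these 9 markers, 7 had a mean above 7 at P7 in Plk3-KO and 8 in WT, against 5 and 7 in the adult. Those tested that lay below 7 in the adult passed the minimum only through P7, their higher age. The part of microglia in the Mef2c values was not tested. Mef2c followed Slc16a6 and Rap1gds1, each at r = 0.983.

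The patterns of the late genes mirrored that of Prdm1. Over the 18 arrays Mef2c and Esrrb correlated at 0.95 with each other and each at -0.94 with Prdm1, whereas Otx2 and Prdm1 correlated at 0.84. Crx correlated at 0.62 with Mef2c and 0.76 with Esrrb and its adult and P7 arrays overlapped. These figures are across arrays of 3 ages and describe the shared course with age.

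**Figure D2:**
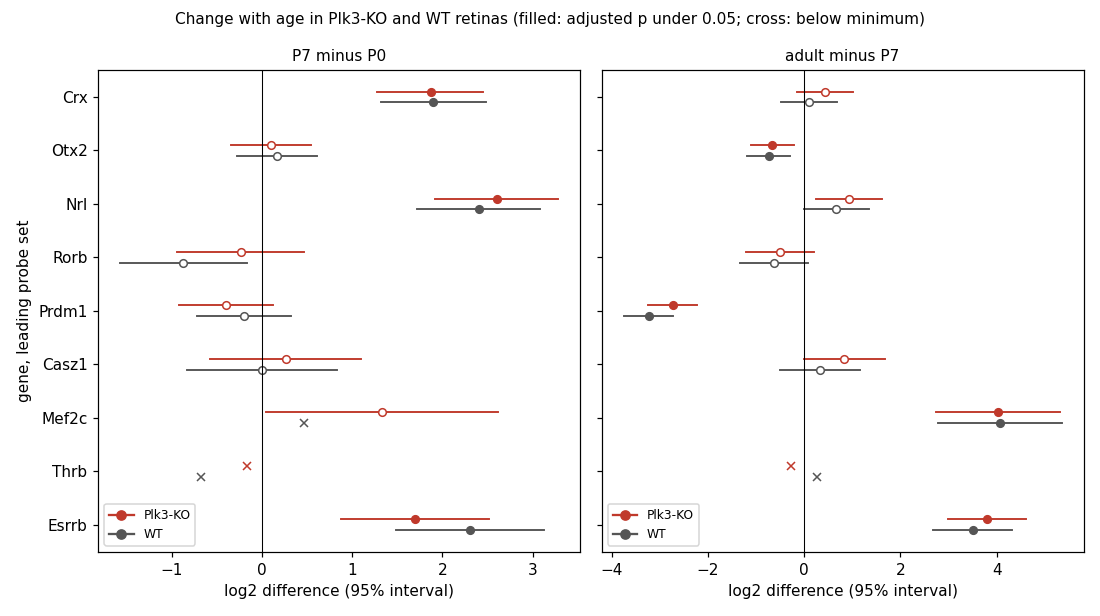
Log2 difference with age of each leading probe set, P7 minus P0 (left) and adult minus P7 (right), Plk3-KO in red above WT in grey, with 95% intervals from limma (filled points passed the threshold, crosses had both means below 7). Crx, Nrl and Esrrb pass on the left, Prdm1, Otx2, Mef2c and Esrrb on the right, in both genotypes.

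Casz1, a zinc finger protein of late-born retinal cells including rods, lies on chromosome 4, as does Plk3. It read 10.1, 10.3 and 9.9 in Plk3-KO at P0, against 10.1, 10 and 9.9 in WT, and 10.6, 9.7 and 10.8 in Plk3-KO at P7, against 10.4, 10.8 and 8.8 in WT. In the adult it read 11.1, 10.9 and 11.6 in Plk3-KO, against 10.3, 10.1 and 10.6 in WT. The lowest readings came at P7, on array 2 of Plk3-KO and array 3 of WT, which stood apart. In Plk3-KO the adult was 2.14-fold above P0 (1.10, standard error 0.393, limma, adjusted p = 0.0314), and in WT it differed by 0.33 (adjusted p = 0.494). The Plk3-KO call was lost on leaving out P0 Plk3-KO array 1 (1.10, adjusted p = 0.069), P0 Plk3-KO array 3 (1.00, adjusted p = 0.0936), adult Plk3-KO array 1 (1.15, adjusted p = 0.0559) or adult Plk3-KO array 3 (0.90, adjusted p = 0.101). Without all 4 arrays that stood apart it held (0.90, adjusted p = 0.000491), and Casz1 was then also higher at P7 than at P0, by 0.60 in each genotype (adjusted p = 0.0165 in Plk3-KO and 0.0161 in WT). The adult minus P7 difference in Plk3-KO, 0.83 (adjusted p = 0.152), passed without P7 WT array 3, which enters it only through the shared spread (0.83, adjusted p = 0.0322). Casz1 followed Dnajb14 (r = 0.931) and Atp2b1 (0.916).
Casz1 has 2 start sites in the table, and the window before the second is printed because it holds TAATCC, in capitals, at 2 places, bases -147 to -142 and -33 to -28.
Casz1, chr4:148889097-148889346, plus strand: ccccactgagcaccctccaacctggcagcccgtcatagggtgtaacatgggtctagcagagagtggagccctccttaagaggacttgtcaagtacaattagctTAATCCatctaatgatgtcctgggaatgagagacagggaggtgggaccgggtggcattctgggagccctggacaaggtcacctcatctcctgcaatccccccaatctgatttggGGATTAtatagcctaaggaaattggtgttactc
The window before the first start site of Casz1 held none.

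Thrb, the thyroid hormone receptor of M-cones, had group means of 6.00 to 6.67, all under the minimum, and was not tested. Its readings ran over 6.1 to 7.0 in Plk3-KO and 5.6 to 6.9 in WT across the 3 ages, and groups next to each other in the order of their means overlapped throughout. A low signal on a single probe set cannot tell a gene of few cells from a probe set that reads poorly.

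The counts of calls with age were read against those of all probe sets. Between P7 and P0, 3 of 8 tested genes were higher and 0 lower in Plk3-KO, and 3 of 7 were higher and 0 lower in WT, where 10.6% of all probe sets tested were called higher and 10.5% lower in Plk3-KO, and 10.8% higher and 9.6% lower in WT. In the step to the adult, 2 were higher and 2 lower of 8 in each genotype, against 9.16% higher and 10% lower of all probe sets in Plk3-KO and 9.95% higher and 9.75% lower in WT. The methods' t-test, with the same adjustment, called only Prdm1 among them in WT, and 3.09% of all probe sets, Otx2, Mef2c and Esrrb having adjusted p-values of 0.0927, 0.118 and 0.0568. Between the adult and P0, 5 were higher and 2 lower in Plk3-KO and 4 higher and 3 lower in WT, against 20.1% higher and 25.2% lower of all probe sets in Plk3-KO and 21.3% higher and 26.9% lower in WT. Counted by groups that did not overlap, 5 of 8 tested genes were separate between P7 and P0 in Plk3-KO and 4 of 7 in WT (41.1% of all probe sets in each), 7 of 8 between the adult and P7 in Plk3-KO and 4 of 8 in WT (30.7% and 31.6%), and 7 of 8 between the adult and P0 in each genotype (53% in Plk3-KO and 56.8% in WT). The median difference of the 9 genes between the adult and P0 was 1.10 in Plk3-KO and 0.33 in WT, beside -0.20 over all tested probe sets in each. Mef2c and Esrrb passed the minimum only through their later, higher ages.

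The age courses were also set against each other. The difference between the Plk3-KO change and the WT change passed for 0 of 8 tested genes from P0 to P7 and for 0 of 8 from P7 to the adult (limma, all adjusted p = 1), and for 0% of all probe sets, of which 110 and 288 had an unadjusted p under 0.05. The widest departures were 0.87 for Mef2c (standard error 0.855, 95% interval -0.95 to 2.68) and 0.63 for Rorb (standard error 0.468, -0.36 to 1.63), both from P0 to P7. Without P7 WT array 3 that of Mef2c was -0.15. Intervals of that width leave room for differences in rate of more than 2-fold.

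Next, the 9 genes were compared between Plk3-KO and WT at each age. None of them passed at any age, and 0% of all probe sets tested did (limma, 0 of 22611 at P0, 0 of 21390 at P7 and 0 of 21005 in the adult, with 85, 123 and 1008 at an unadjusted p under 0.05). At P0 and P7 the unadjusted counts are far below what a threshold of 0.05 gives by chance. The tests were thus strict there, and a lack of calls is weak evidence of no difference. With only the compared groups fitted, 0 probe sets were called at each age too. At P0 the differences of the 6 tested genes ran from -0.20 for Rorb to 0.20 for Prdm1, and the groups of all 6 overlapped, as 3.49% of all probe sets did not. At P7 those of the 8 tested genes ran from -0.23 for Esrrb to 0.57 for Mef2c (-0.45 without P7 WT array 3), and again all groups overlapped, as 1.92% of all probe sets did not. The adult differences were all positive among the 8 tested genes, from 0.07 for Esrrb and 0.10 for Otx2 to 0.87 for Casz1. Their median with Thrb was 0.37, beside -0.03 over all 21005 probe sets.

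Of the 8 tested genes, 1 had adult groups that did not overlap, Casz1, with a lowest Plk3-KO reading of 10.9 and a highest WT reading of 10.6. Among all probe sets tested, 5.48% did not overlap in the adult, 2.11% with Plk3-KO higher. The Casz1 difference of 0.87 had a standard error of 0.393, a 95% interval of 0.03 to 1.70 and an unadjusted p of 0.0423, which adjustment over all probe sets in limma raised to 0.977. An exact permutation test of 3 arrays against 3 cannot go below 0.1. Without the 4 arrays that stood apart Casz1 passed (0.80, limma, adjusted p = 0.0495), in a setting that leaves 2 adult arrays per genotype and calls 1.67% of all probe sets.

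Prdm1 came next by unadjusted p, with 9.00 ± 0.10 in adult Plk3-KO and 8.50 ± 0.52 in adult WT (SD, n = 3 each). The difference was 0.50 (standard error 0.244, limma, unadjusted p = 0.0576, adjusted p = 0.977). WT array 3 alone, at 9.1, lay among the Plk3-KO readings. Rorb stood at 12.13 ± 0.21 in adult Plk3-KO and 11.57 ± 0.67 in adult WT (0.57, standard error 0.331), with WT array 3, at 12.3, again among the Plk3-KO readings. Its further probe sets differed by -0.07 (1439862_at) and -0.27 (1425162_at) in the same comparison, against the sign of the leading one. With each array weighted by its spread, Prdm1 (0.81, adjusted p = 0.00772), Rorb (0.78, adjusted p = 0.0432) and Casz1 (0.79, adjusted p = 0.0404) were called on their leading probe sets. The estimate of the weights did not converge, gave adult WT array 3 a weight of 0.22, and called 6.91% of all probe sets. Mef2c differed by 0.53 (95% interval -0.75 to 1.82), Crx by 0.37 (-0.22 to 0.95) and Nrl by 0.37 (-0.31 to 1.05). The adult Nrl difference was -0.02 after quantile normalization. In the same arrays the rod gene list had a median difference of 0.33, and bipolar markers had list means of 9.60 to 10.09 in adult Plk3-KO, below the 10.24 to 10.39 of adult WT. The part of these shifts in the values of the 9 genes was not tested.

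**Figure D3:**
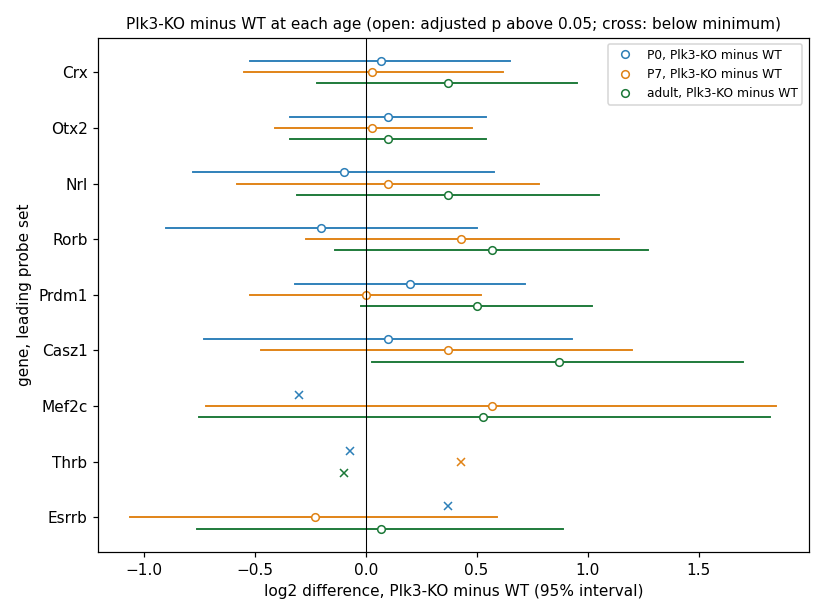
Log2 difference of Plk3-KO minus WT at P0 (blue), P7 (orange) and in the adult (green) for each leading probe set, with 95% intervals from limma (all points are open because none passed; crosses had both means below 7). The adult interval of Casz1, 0.03 to 1.70, is the only 1 that does not reach 0.

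The further probe sets were then set against the leading ones. All 4 further probe sets of Mef2c followed the leading one (r = 0.92 to 0.98 over 18 arrays) and were called higher in the adult than at P7 in both genotypes, by 3.57 to 4.23 in Plk3-KO and 3.30 to 4.33 in WT. Of these, 1424852_at was also called between P7 and P0, at 1.60 in Plk3-KO (limma, adjusted p = 0.0236) and 1.83 in WT (adjusted p = 0.0114), where the leading one was not. Both further probe sets of Esrrb did so too (r = 0.97 and 0.88), by 2.20 and 2.13 in Plk3-KO and by 1.67 and 2.20 in WT, beside 3.80 in Plk3-KO and 3.50 in WT on the leading one, while between P7 and P0 1422986_at, below the minimum, differed by 0.33 in Plk3-KO and 0.10 in WT. The second probe set of Crx, 1449185_at, lay 2.07 log2 units lower and rose by 1.70 in Plk3-KO and 1.60 in WT between P0 and P7 (r = 0.88). Between the adult and P7 it ran against the leading one without being called, at -0.43 in Plk3-KO (limma, adjusted p = 0.129) and -0.50 in WT (adjusted p = 0.0788, groups not overlapping), beside 0.43 and 0.10 on the leading one. The 2 further probe sets of Rorb, at r = 0.69 and 0.64, were looser, and between the adult and P0 both were called in the direction of the leading one.

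The further probe sets of Casz1 did not share its course. Its second probe set, 1453349_at, stayed between 7.37 and 7.57 in all 6 groups, did not follow the leading one (r = 0.04), and in the adult stood at 7.37 ± 1.07 in Plk3-KO and 7.57 ± 0.25 in WT. The call of Casz1 for adult against P0 in Plk3-KO turned into -0.07 on it (limma, adjusted p = 0.906). The other 2, 1446975_at and 1442010_at, stayed below the minimum in every group, with means of 3.57 to 6.13. The probe sets read different parts of the transcript, and which of them follows the full Casz1 mRNA was not tested. Of the 12 further probe sets, 10 were tested between the adult and P0, and 9 were called in each genotype, all in the direction of the leading estimate. Of all probe sets tested, 45.3% were called in this comparison in Plk3-KO and 48.1% in WT. The further probe sets of Mef2c and Esrrb had no P0 mean above 7. Against P0 they passed the minimum only through the adult, their higher age. At P7 only 1424852_at and 1441921_x_at among them had means above 7. Several of the 9 read the same gene. Between the genotypes 0 of the 12 were called at any age.

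**Figure D4:**
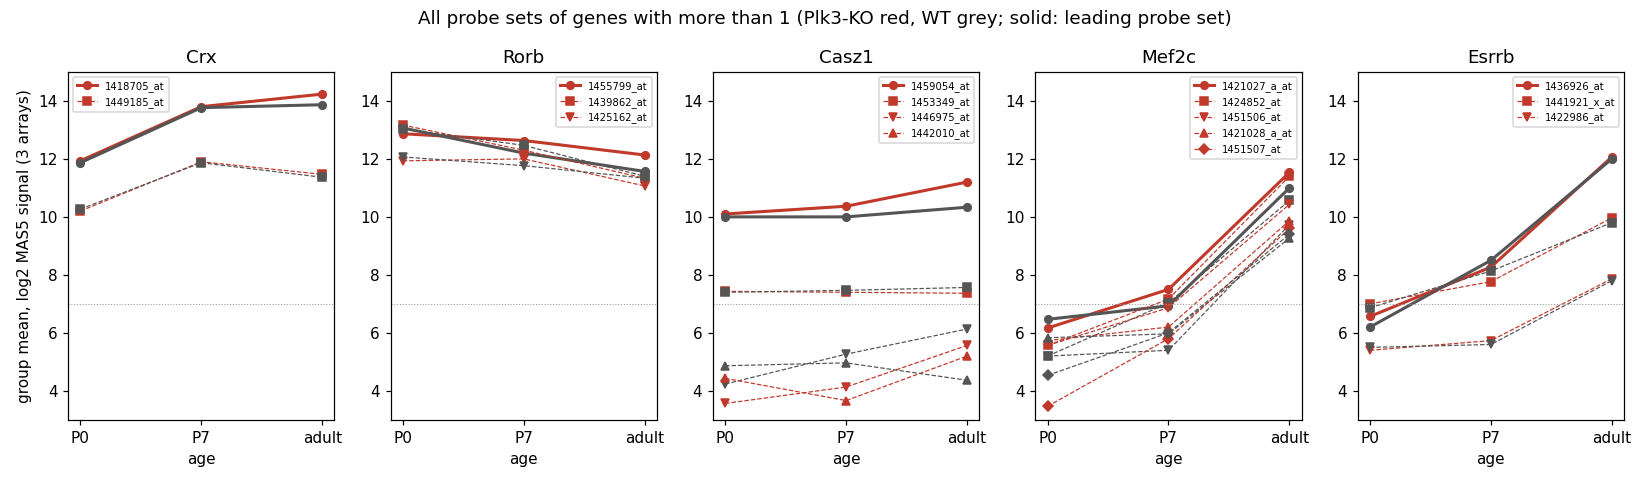
Group means (log2 MAS5 signal, 3 arrays each) by age of every probe set of the 5 genes that have several, Plk3-KO in red and WT in grey, with the leading probe set as a thick solid line and the others dashed (the dotted line is the minimum of 7). Dashed lines run with the solid ones for Mef2c and Esrrb, while for Casz1 the dashed line at 7.37 to 7.57 is flat.

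Genes that act beside these factors and the genes they drive were listed as well. Of 25 rod genes 23 were measured and 22 tested, and between P7 and P0 21 were higher and 0 lower in each genotype, with a median difference of 4.20 in Plk3-KO and 3.83 in WT, beside -0.10 over all probe sets in each. In the adult 14 were higher than at P7 in each genotype, with 1 lower in Plk3-KO and 0 in WT. Of all probe sets, 10.6% were higher and 10.5% lower between P7 and P0 in Plk3-KO, and 10.8% and 9.6% in WT. Between the adult and P7, 9.16% were higher and 10% lower in Plk3-KO, and 9.95% and 9.75% in WT. The rod genes with the highest signals were Gnb1, a transducin subunit, Pdc, phosducin, and Sag, the rod arrestin. Sag was higher at P7 than at P0 by 3.20 in Plk3-KO and 3.23 in WT (standard error 0.318, limma, adjusted p = 2.77e-06 and 2.98e-06), and Pdc by 1.80 and 1.70 (standard error 0.302, adjusted p = 0.000432 and 0.00076). Gnb1, which other cells make too, was higher by 1.30 in Plk3-KO and 1.13 in WT (standard error 0.248, adjusted p = 0.00122 and 0.00375). Of the rod genes tested, 21 of 22 were called in the step in which Crx and Nrl rose, and a link between the 2 was not tested. Only 15 of the 23 measured rod genes had a mean above 7 at P0, against 22 at P7, in each genotype. The others of the 22 passed the minimum only through P7, their higher age.

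Of 14 cone genes 13 were measured. In Plk3-KO 10 of these had a mean above 7 at P0 and 12 at P7, and in WT 9 at P0 and 13 at P7. Those tested that lay below 7 at P0 passed the minimum only through P7, their higher age. Between P7 and P0, 6 of 12 tested were higher and 2 lower in Plk3-KO, and 8 of 13 were higher and 1 lower in WT, and between the adult and P7 9 of 13 were higher in Plk3-KO and 8 of 13 in WT, with 0 lower. Of all probe sets, 10.6% were higher and 10.5% lower in Plk3-KO and 10.8% and 9.6% in WT in the earlier step, and 9.16% and 10% in Plk3-KO and 9.95% and 9.75% in WT in the later. Opn1sw, the short-wave cone opsin, moved late, by 1.83 in Plk3-KO and 1.47 in WT between the adult and P7 (standard error 0.286, limma, adjusted p = 0.000396 and 0.00229). Gnb3, the cone transducin subunit, moved early, by 1.60 in Plk3-KO and 1.53 in WT between P7 and P0 (standard error 0.308, adjusted p = 0.00131 and 0.00204). Gnb5, which serves to switch off transducin in rods and cones alike, rose in both steps. None of the rod or cone genes passed between Plk3-KO and WT at any age.

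Of 29 other regulators of photoreceptor development 28 were measured, and they went both ways. At P0 26 had a mean above 7 in Plk3-KO and 25 in WT, against 22 in each genotype in the adult. Those tested that lay below 7 in the adult passed the minimum only through P0, their higher age. Between the adult and P0, 7 were higher and 12 lower of 26 tested in Plk3-KO, and 9 higher and 9 lower of 25 in WT, beside 20.1% higher and 25.2% lower of all probe sets in Plk3-KO and 21.3% and 26.9% in WT. Neurod1, a basic helix-loop-helix factor kept on in photoreceptors, had the highest signal of them, at 14.10 ± 0.30, 14.80 ± 0.35 and 14.47 ± 0.06 in Plk3-KO at P0, P7 and in the adult, against 14.17 ± 0.23, 14.47 ± 0.25 and 14.30 ± 0.10 in WT (SD, n = 3 each). Its P7 minus P0 difference passed in Plk3-KO (0.70, limma, adjusted p = 0.0381) and not in WT (0.30, adjusted p = 0.386). Samd11, a partner of Crx in rods, took a course like that of Crx, higher at P7 than at P0 by 2.50 in Plk3-KO and 2.33 in WT (standard error 0.229, adjusted p = 1.17e-06 and 2.94e-06) and with no call between the adult and P7. Thra, the second thyroid hormone receptor gene, lay at 11.93 to 12.47 in all groups, and none of its differences between neighbouring ages passed.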

How the data were processed

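Retinal total RNA was hybridized to Affymetrix Mouse Genome expression arrays, 18 in all. The authors deposited log2 signals, made with MAS5 in the Bioconductor affy package. Its version and scaling target are not given in the sources used here, and no count of molecules lies behind a value. Of 45101 probe sets, 64 controls were left out, 34945 carried a single gene symbol in the platform annotation and 932 several, and 9160 carried none. No value was normalized again. Samples were grouped by the labels' genotype and age. limma 3.58.1 (R 4.3.3) was fitted to all 6 groups together over the 25085 probe sets with any group mean above 7 (12 residual and 4.07 prior degrees of freedom, eBayes with a trend), with 12 comparisons and Benjamini-Hochberg adjustment within each over the probe sets it tested. The script was tested on simulated data. Genes were named by rule: the listed factors with all probe sets, the 2 genes closest to each in pattern, the 3 brightest of each related list, and Plk3. The factors, lists and tests were chosen with earlier results of these data known. Pairing of replicate numbers was checked by the correlation of deviations within each age, and no pairing common to all ages was found. Alternatives covered normalization, the minimum, the methods' t-test, array weights (statmod 1.5.0 gave the random block), a replicate block, an actin covariate, and arrays left out. Nr2e3 is not analysed here. Promoter windows came from RefSeq tables (GRCm38.p6), in which 10 of 10 genes matched.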

Additional observations from a re-analysis of the deposited data

How the results depend on the processing

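The number of the 9 genes called between Plk3-KO and WT was 0 at P0, P7 and over the ages under every alternative, and in the adult became 3 with arrayWeights and 1 without the 4 arrays that stood apart. Without those 4 arrays the count became 5 between P7 and P0 in each genotype (from 3) and 7 between the adult and P7 in Plk3-KO (from 4), with 30.3% and 31.6% of all probe sets called between P7 and P0 in Plk3-KO and WT and 37.2% between the adult and P7 in Plk3-KO. With arrayWeights it became 5 between P7 and P0 and 7 between the adult and P7 in Plk3-KO (41.6% and 44.7% of all probe sets). The methods' t-test with Benjamini-Hochberg adjustment called 1 between the adult and P7 in WT (3.09% of all probe sets). The causes were not tested. Leaving out 1 array at a time, the counts ran from 0 to 0 in all comparisons of genotype and of age courses, from 3 to 4 between P7 and P0 in each genotype, from 3 to 5 in WT and 3 to 6 in Plk3-KO between the adult and P7, and from 6 to 7 in WT and 5 to 8 in Plk3-KO between the adult and P0. The replicate numbers gave no pairing common to all ages. Same-numbered correlations were -0.06 to 0.19 at P0 and -0.61 to 0.38 at P7. In the adult they were 0.10 to 0.54, against -0.63 to 0.41 for the other pairs, so pairing there is not settled. Blocked by number, 3, 4 and 7 genes were called between P7 and P0, adult and P7, and adult and P0 in each genotype. These were the counts without the block, and 0 were called between genotypes either way. Casz1 on its second probe set gave -0.07 for adult minus P0 in Plk3-KO, the only called value to change sign.

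Of 1161 single-gene values under settings other than leaving out an array, 24 lost a call, 30 gained one and 31 uncalled values changed sign. Of 1944 values with an array left out, 21 lost and 14 gained a call and 52 uncalled ones changed sign. On the further probe sets 4 of 144 lost a call, 5 gained one, and 45 uncalled ones changed sign. Signal limits Thrb, and Mef2c and Esrrb at P0, whose means lay under 7.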

Other observations

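Close relatives of 3 of the factors are given here as values chosen after they were seen, and no test set a relative against its factor. Mef2d, a relative of Mef2c, was higher at P7 than at P0 by 1.47 in Plk3-KO (standard error 0.201, limma, adjusted p = 6.95e-05) and by 1.37 in WT (adjusted p = 0.000146), and between the adult and P7 it differed by -0.13 in Plk3-KO (adjusted p = 0.679) and -0.33 in WT (adjusted p = 0.253). Esrrg, a relative of Esrrb, was higher at P7 than at P0 by 1.33 in Plk3-KO (adjusted p = 0.000731) and 1.17 in WT (adjusted p = 0.00232), and stood at 11.73 ± 0.32 in adult Plk3-KO and 11.50 ± 0.10 in adult WT (SD, n = 3 each). Rxrg, which pairs with Thrb in cones, was lower in the adult than at P0 by -1.10 in Plk3-KO (adjusted p = 0.00202) and -0.70 in WT (adjusted p = 0.03). Between Plk3-KO and WT none of the 3 passed at any age.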
